A study of Rattus norvegicus with 8 samples.

Results

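The insulin-like growth factor (IGF) genes described here were the ligands Igf1 and Igf2, the receptor Igf1r and the IGF binding protein genes Igfbp2 to Igfbp7, chosen by gene symbol from a table of 15590 genes. Of the 9 named genes, 8 had a row, and all 8 passed the filter on low values and were tested. Igfbp2 had no row matched by its symbol and was not analysed here. RNA had been sequenced from the right Achilles tendons of 8 rats. Of these, 4 were naïve controls (NC) and 4 ran on a treadmill for 1 h and were killed at once (the group 0 h p.r., for post-run). Both groups were male wild-type Sprague Dawley rats aged 8 to 10 weeks. The run was at 20 m/min on a 10° incline, and airflow and a mild electric stimulus kept the animals moving. According to the methods, the cage controls of the one-time running experiment were killed together with the animals left for 12 h after the run, so any effect of the time of day or of handling and stimulus cannot be told apart from that of running. The comparison asked which transcripts differed in the tendon at the end of a single run.

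IGF-I and IGF-II are small secreted growth factors that signal mainly through the IGF-I receptor, a tyrosine kinase that recruits the insulin receptor substrates and drives the PI3K-AKT and MAPK pathways. The IGF binding proteins hold most of the ligand in the extracellular space, and proteases that cut them release it. Growth hormone stimulates Igf1 transcription through its receptor, JAK2 and STAT5, and in tendon IGF-I is known as a stimulus of tenocyte growth and collagen synthesis.

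Depth and tissue make-up were checked first. Whole reads recovered from the steps of the FPKM values (fragments scaled to gene length and sequencing depth, here also scaled between libraries) came to between 11350560 and 17897056 per library. Mitochondrial genes held 31.1% of the FPKM of NC replicate 2 and 16.3% to 21.9% of that of the other 7 libraries. All 9 tenocyte markers were detected in every library, with a summed level of 7528 to 13066 FPKM in NC and 10712 to 22227 FPKM in 0 h p.r., the highest in 0 h p.r. replicate 4. The summed skeletal muscle markers ranged from 4672 to 6776 FPKM in NC and from 898 to 28427 FPKM in 0 h p.r., so the running group varied far more in muscle RNA than the controls. In such bulk samples, fewer cells of a type and less RNA per cell cannot be told apart.

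Igf1 (ENSRNOG00000004517) was the only one of the 8 genes to pass the adjusted p, and it fell 1.83-fold. Its level was 58.8, 60.5, 98.5 and 69.0 FPKM in NC replicates 1 to 4 and 36.3, 37.5, 30.5 and 51.1 FPKM in 0 h p.r. replicates 1 to 4. Every running library lay below every control, with NC replicate 3 the highest and 0 h p.r. replicate 3 the lowest. The mean fell from 71.7 ± 18.4 to 38.8 ± 8.71 FPKM (SD, n = 4 per group). On the log2(FPKM + 0.5) scale the difference was -0.87 (SE 0.20, 95% confidence interval -1.33 to -0.41), with an adjusted p of 0.0432 in limma over 13863 genes. The fall stayed under the study's second threshold of 2-fold. Each library held 752 to 2782 reads of Igf1, so counting error was small beside the spread between animals. The call was close to the threshold and rested on nearly all of the libraries. Without NC replicate 1, 2, 3 or 4 the limma adjusted p was 0.0813, 0.0559, 0.0809 and 0.0881, and without 0 h p.r. replicate 1, 2 or 3 it was 0.0936, 0.119 and 0.115. Without 0 h p.r. replicate 4 it was 0.0202, with a log2 difference of -1.01. It was 0.0505 after quantile normalization and 0.0760 when libraries were scaled to their sum of nuclear transcripts. All 9 adipocyte markers were also lower in 0 h p.r., with a sum of 3065 to 6135 FPKM in NC and 1022 to 2234 FPKM in 0 h p.r., and their part in the Igf1 values was not tested.

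**Figure D1:**
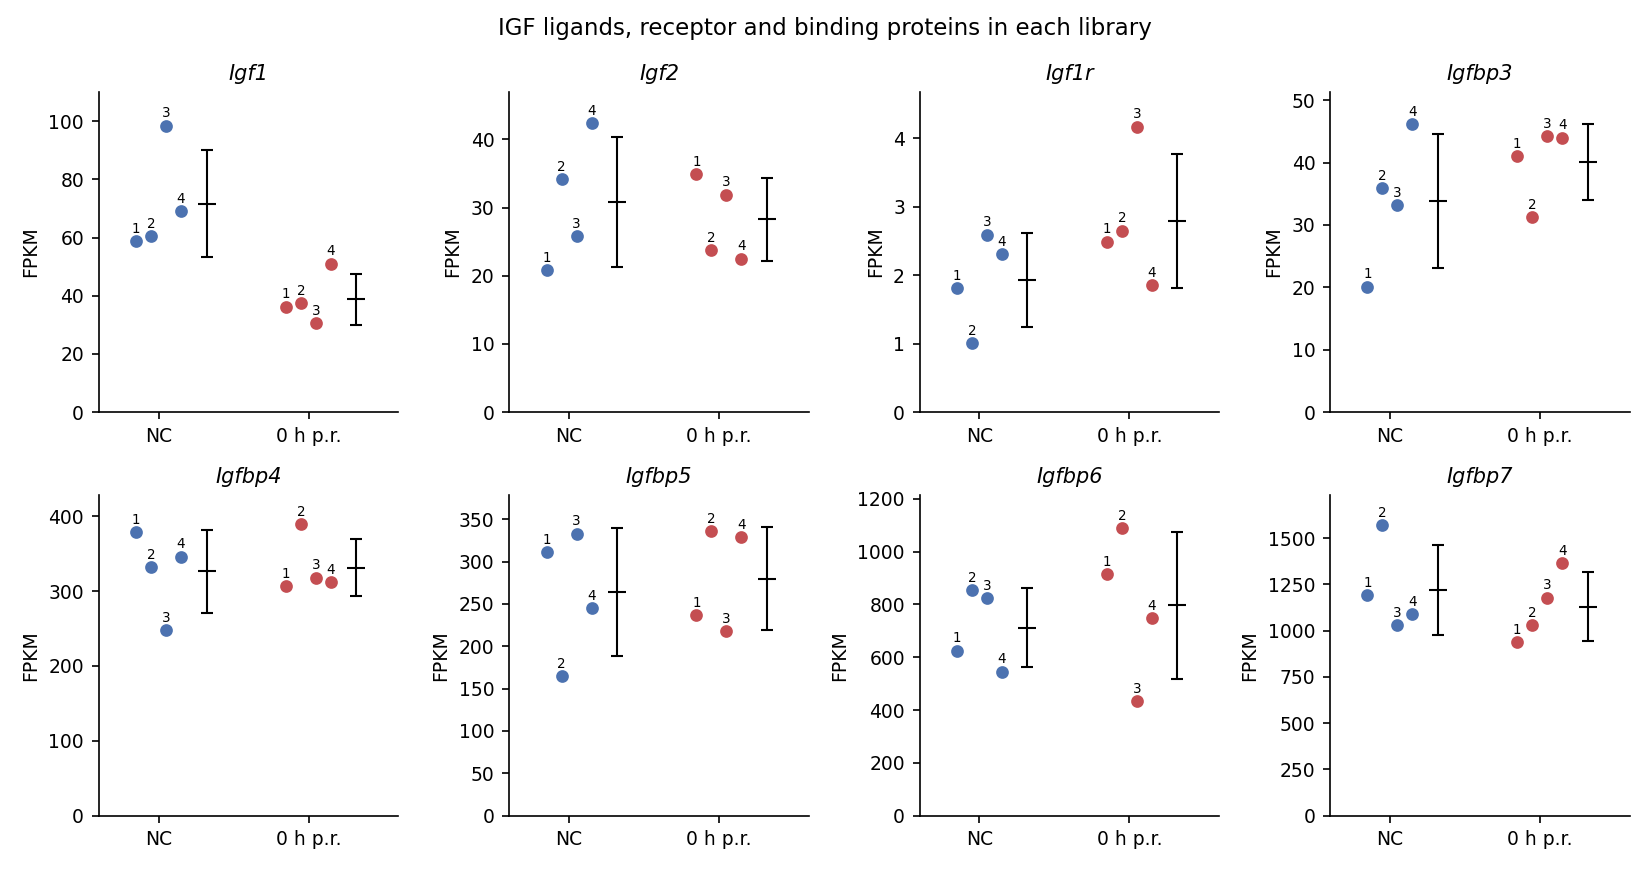
Level of each IGF gene (FPKM, linear axis from 0) in the 4 NC and 4 0 h p.r. libraries; points are libraries labelled by replicate number, and the bar gives mean ± SD. Igf1 is the only panel in which the groups do not overlap (58.8 FPKM is the lowest control and 51.1 FPKM the highest running library).

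Set against all genes, 1 of 8 members with an adjusted p under 0.05 compares with 5.72% of the 13863 tested genes, 2.23% for genes lower in 0 h p.r. and 3.49% for genes higher. None of the 8 passed both thresholds (adjusted p under 0.05 and at least 2-fold), against 2.70% of tested genes. By limma, 1 of the 8, Igf1 itself, had an unadjusted p under 0.05, against 22.6% of all genes. Groups that did not overlap were seen for 1 of 8 members and for 15.6% of all tested genes. Estimates were higher in 0 h p.r. for 5 members and lower for 3. The median log2 difference was 0.07 over the members and -0.0014 over all genes, and the median size regardless of sign was 0.11 and 0.22.

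Igf2 (ENSRNOG00000020369), the other ligand, did not pass the test. It measured 20.8, 34.2, 25.8 and 42.4 FPKM in NC replicates 1 to 4 and 34.9, 23.8, 31.9 and 22.5 FPKM in 0 h p.r. replicates 1 to 4. The ranges overlapped widely, with the 4 running libraries lying inside the range of the controls. The means were 30.8 ± 9.48 and 28.3 ± 6.09 FPKM (SD, n = 4), a log2 difference of -0.09 (SE 0.23, interval -0.62 to 0.43, limma adjusted p = 0.868). This interval does not reach the Igf1 estimate, and the difference between both ligands was not tested. Igf1 made up 73.8%, 63.9%, 79.2% and 62.0% of the ligand sum in NC replicates 1 to 4, and 50.9%, 61.2%, 48.9% and 69.4% in 0 h p.r. replicates 1 to 4. The share overlapped between the groups because of 0 h p.r. replicate 4, whereas the sum of both ligands did not overlap. That sum was 102 ± 19.5 FPKM in NC and 67.1 ± 6.18 FPKM in 0 h p.r.

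Igf1r (ENSRNOG00000014187), the receptor for both ligands, was the least abundant member. Its level was 1.81, 1.01, 2.59 and 2.31 FPKM in NC replicates 1 to 4 and 2.49, 2.65, 4.17 and 1.85 FPKM in 0 h p.r. replicates 1 to 4. The groups overlapped, the lowest value being NC replicate 2 and the highest 0 h p.r. replicate 3. With means of 1.93 ± 0.694 and 2.79 ± 0.981 FPKM (SD, n = 4), the log2 difference was 0.44 (SE 0.28, interval -0.18 to 1.07, limma adjusted p = 0.393). This gene had only 41 to 219 reads per library, and the counting error at the fewest was 15.6%. The upper end of the interval reaches a 2-fold rise. The ratio of Igf1 to Igf1r was 32.5, 60.0, 38.0 and 29.9 in NC and 14.6, 14.2, 7.32 and 27.6 in 0 h p.r. These ratios did not overlap, but 0 h p.r. replicate 4 lay next to the lowest control. They are a description with no test of their own, since they rest on the same Igf1 values.

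The ligand that fell and its receptor also differed in the sequence around their listed transcription starts, which is shown here to place both genes in the genome. The stretches run from 250 bases before to 50 bases after the start in RefSeq on the rat build GRCr8, a later build than the one the reads were aligned to. Igf1 lies at chr7:24172282-24172581 and Igf1r at chr1:130959747-130960046, both on the plus strand. Capitals mark CG dinucleotides.
Igf1: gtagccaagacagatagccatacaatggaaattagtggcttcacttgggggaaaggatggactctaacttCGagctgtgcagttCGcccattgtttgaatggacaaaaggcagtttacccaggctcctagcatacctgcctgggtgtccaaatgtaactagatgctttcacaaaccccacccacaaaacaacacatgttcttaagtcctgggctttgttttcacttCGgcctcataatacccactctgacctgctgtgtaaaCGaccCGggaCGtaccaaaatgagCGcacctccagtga
Igf1r: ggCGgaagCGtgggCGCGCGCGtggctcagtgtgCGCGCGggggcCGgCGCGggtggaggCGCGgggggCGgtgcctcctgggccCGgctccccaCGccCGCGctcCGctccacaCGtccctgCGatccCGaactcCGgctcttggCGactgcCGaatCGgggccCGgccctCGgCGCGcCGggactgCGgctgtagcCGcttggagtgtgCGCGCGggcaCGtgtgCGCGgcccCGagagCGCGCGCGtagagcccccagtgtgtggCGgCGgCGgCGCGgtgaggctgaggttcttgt
The Igf1 stretch had a GC content of 48.3% and 7 CG dinucleotides, and the median of 33469 rat promoters was 51.7% and 7. The Igf1r stretch had 78.0% and 50, a GC content at percentile 98.4. A set of 4 motifs was searched on both strands, with overlapping matches counted. None of TATAAA (the TATA box motif, in 14.2% of all promoters), TTCNNNGAA (STAT5 site, 8.87%), GTAAACA (FoxO site, 3.78%) and ACGTG (hypoxia response core, 19.3%) was in the Igf1 stretch, which says only that these letters are not in this window. Igf1r had 3 matches of ACGTG, of which 2 overlapped on opposite strands.

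The binding protein transcripts were far more abundant than those of the ligands and none of the 5 passed the test. Igfbp7 (ENSRNOG00000002050), a secreted protein that binds IGFs with low affinity and is common in vessel walls and matrix, led with a mean of 1175 FPKM over all 8 libraries. It measured 1193, 1571, 1031 and 1088 FPKM in NC and 938, 1031, 1179 and 1365 FPKM in 0 h p.r., a log2 difference of -0.11 (SE 0.22, interval -0.62 to 0.40, limma adjusted p = 0.834). The groups overlapped, and the highest value was that of NC replicate 2, the library rich in mitochondrial transcripts. Igfbp6 (ENSRNOG00000010977), which prefers IGF-II over IGF-I, measured 625, 853, 824 and 545 FPKM in NC and 914, 1090, 433 and 749 FPKM in 0 h p.r. The running group held both the highest and the lowest library, 2.52-fold apart. The log2 difference of Igfbp6 was 0.11 (SE 0.30, interval -0.58 to 0.79, limma adjusted p = 0.885).

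Igfbp4 (ENSRNOG00000010635), an inhibitor of IGF action that is inactivated by the protease PAPP-A, was the steadiest binding protein gene. It measured 379, 332, 248 and 346 FPKM in NC and 307, 389, 318 and 312 FPKM in 0 h p.r. The overlap was nearly complete, and the log2 difference was 0.03 (SE 0.17, interval -0.35 to 0.42, limma adjusted p = 0.939). A change of Igfbp4 as large as that of Igf1 lies outside this interval. Igfbp5 (ENSRNOG00000017206), which binds to extracellular matrix, measured 311, 165, 333 and 245 FPKM in NC and 237, 336, 218 and 329 FPKM in 0 h p.r. NC replicate 2 stood lowest and the other 7 libraries were between 218 and 336 FPKM. The log2 difference of Igfbp5 was 0.11 (SE 0.25, interval -0.46 to 0.68, limma adjusted p = 0.851).

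Igfbp3 (ENSRNOG00000061910), the main carrier of IGFs in serum, was the least abundant binding protein transcript. It measured 20.1, 35.9, 33.2 and 46.2 FPKM in NC and 41.0, 31.3, 44.2 and 44.0 FPKM in 0 h p.r. NC replicate 1 was the lowest of the 8 and NC replicate 4 the highest, so the running libraries lay inside the range of the controls. The log2 difference was 0.29 (SE 0.24, interval -0.25 to 0.82, limma adjusted p = 0.533).

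Summed over the 5 genes, the binding protein transcripts were 2529, 2957, 2469 and 2271 FPKM in NC and 2437, 2876, 2192 and 2800 FPKM in 0 h p.r. The means, 2556 ± 289 and 2576 ± 320 FPKM (SD, n = 4), differed by far less than the spread between animals. Igfbp7 contributed 47.5% ± 4.66 of the sum in NC and 44.2% ± 8.48 in 0 h p.r. Igfbp6 contributed 27.7% ± 4.31 and 30.5% ± 8.82, with 37.5% and 37.9% in 0 h p.r. replicates 1 and 2 against 19.7% and 26.8% in replicates 3 and 4. Igfbp4 held 12.9% in both groups, Igfbp5 10.5% and 10.8%, and Igfbp3 1.35% and 1.59%. The composition of the pool thus varied among the running animals mainly through Igfbp6 and Igfbp7. Against the smaller ligand sum, the ratio of binding protein to ligand transcripts was 31.8, 31.2, 19.9 and 20.4 in NC and 34.2, 46.9, 35.1 and 38.1 in 0 h p.r. These ratios did not overlap. The separation came from the ligand side, since the binding protein sum overlapped and the ligand sum did not, and no test was run on it.

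**Figure D2:**
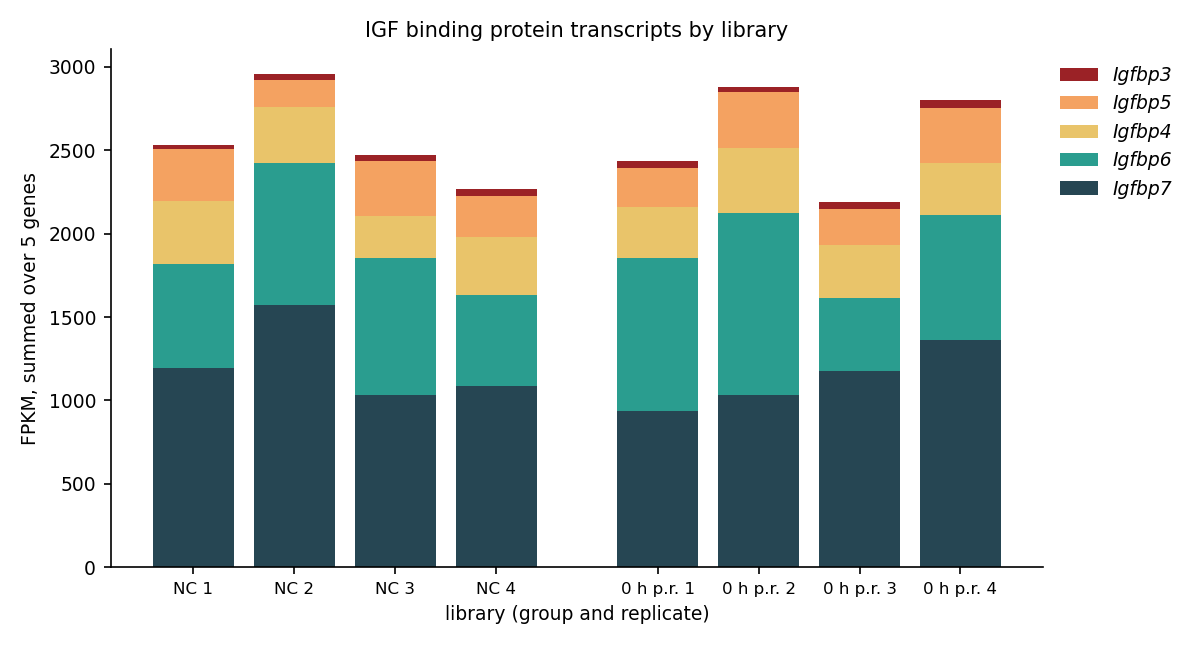
Stacked FPKM of the 5 IGF binding protein genes in each library (linear axis from 0). The total lies between 2192 and 2957 FPKM in all 8 libraries, while the Igfbp6 band is widest in 0 h p.r. replicate 2 (1090 FPKM) and narrowest in 0 h p.r. replicate 3 (433 FPKM).

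Because FPKM is per length, levels can be set in order across genes. By the mean over 8 libraries the order was Igfbp7 (1175 FPKM), Igfbp6 (754), Igfbp4 (329), Igfbp5 (272), Igf1 (55.3), Igfbp3 (37.0), Igf2 (29.5) and Igf1r (2.36). The order held in all 8 libraries at the steps from Igfbp6 to Igfbp4, from Igfbp5 to Igf1 and from Igf2 to Igf1r. Igfbp7 exceeded Igfbp6, and Igfbp3 exceeded Igf2, in 7 libraries. Igfbp4 and Igfbp5 kept their order in only 6 and did not differ beyond their spread. Igf1 exceeded Igfbp3 in all 4 controls but in only 2 of the 4 running libraries, where both genes lay at a like level. On a scale of all listed genes, Igfbp7 ranked 57 by mean FPKM and Igf1r ranked 11159.

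**Figure D3:**
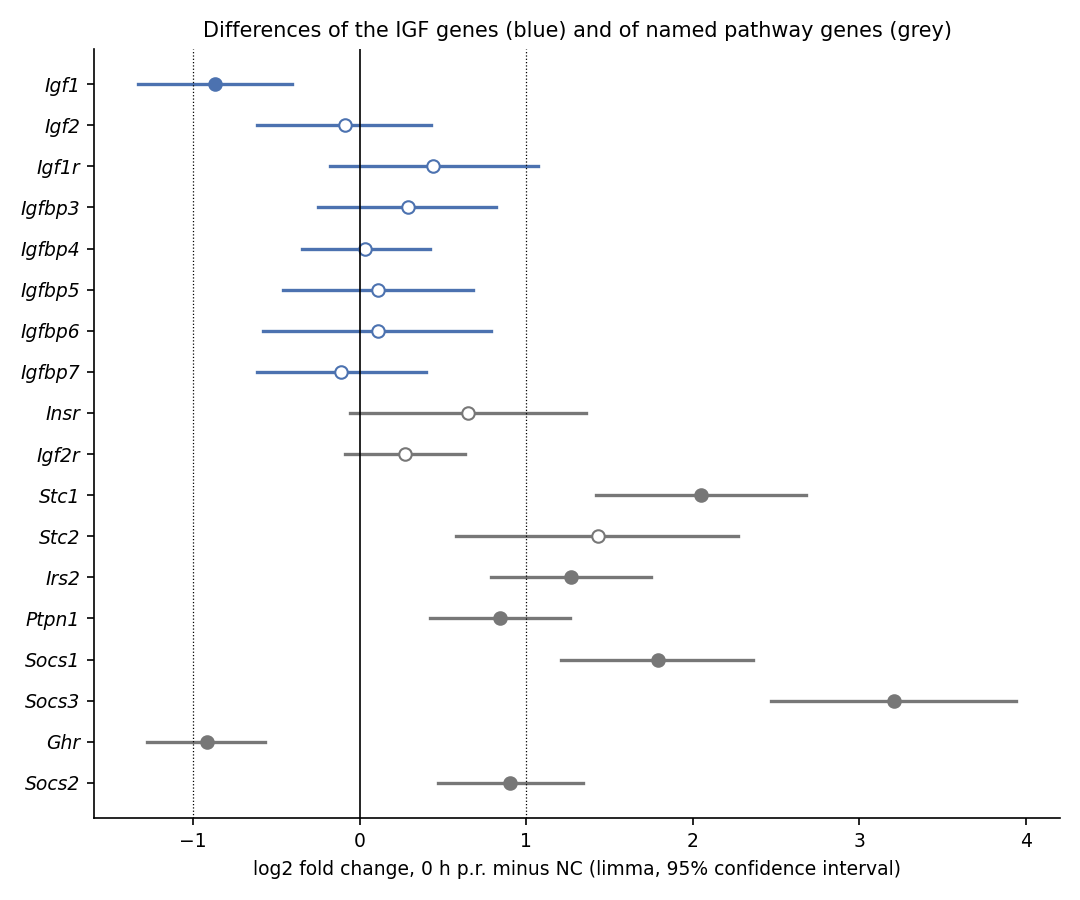
Log2 fold change of FPKM (0 h p.r. minus NC, limma, with 95% confidence intervals) for the 8 IGF genes in blue and the named pathway genes in grey; filled points have an adjusted p under 0.05, and dotted lines mark a 2-fold change. Igf1 (-0.87) is the only filled blue point, while the filled points of Socs3 (3.21), Stc1 (2.05), Socs1 (1.79) and Irs2 (1.27) and the open point of Stc2 (1.43) lie to the right of the line for a 2-fold rise.

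The growth hormone axis, which stimulates Igf1 transcription, was read from a list of 8 genes, all tested. Of these, 3 rose and 1 fell by the adjusted p, against 3.49% and 2.23% of all tested genes, and 2 passed both thresholds, against 2.70%. This list and the other pathway lists below were chosen with earlier results of these data known, so such shares are a description only. Ghr, the growth hormone receptor, fell with Igf1. Its level was 88.5, 58.2, 74.8 and 68.5 FPKM in NC and 35.2, 35.8, 34.0 and 46.7 FPKM in 0 h p.r. All running libraries lay below all controls, and 0 h p.r. replicate 4 was the highest of them, as it was for Igf1. The means were 72.5 ± 12.6 and 37.9 ± 5.89 FPKM (SD, n = 4), a log2 difference of -0.92 (SE 0.16, limma adjusted p = 0.0141). Without 0 h p.r. replicate 2 the adjusted p for Ghr was 0.0558, and without replicate 3 it was 0.0519. Scaled to the sum of nuclear transcripts it was 0.0505.

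The genes of that list that rose were all members of the SOCS family, inhibitors of cytokine and growth hormone signalling that JAK-STAT activity itself induces. Which cytokine or hormone signal lay behind their rise was not tested. Socs3 measured 11.9, 9.01, 19.3 and 26.5 FPKM in NC and 131, 150, 206 and 111 FPKM in 0 h p.r., without overlap. Its log2 difference was 3.21 (SE 0.33, limma adjusted p = 0.00151). Socs1 went from 3.71 ± 1.54 to 13.6 ± 3.02 FPKM (SD, n = 4), a log2 difference of 1.79 (SE 0.26, limma adjusted p = 0.00698). Socs2, the member most closely tied to growth hormone receptor signalling, measured 17.2, 16.3, 30.2 and 21.4 FPKM in NC and 36.6, 35.5, 38.8 and 46.3 FPKM in 0 h p.r. The lowest running library of Socs2 stood just above NC replicate 3. Its log2 difference was 0.90 (SE 0.19, limma adjusted p = 0.0327). The Socs2 call was lost without NC replicate 1, 2 or 4 (adjusted p of 0.0978, 0.0591 and 0.0651) and without 0 h p.r. replicate 1, 2 or 3 (0.0658, 0.0836 and 0.0863), and under quantile normalization (0.0567) and scaling to the nuclear sum (0.119). Cish, another inhibitor of this family, did not pass (log2 difference 0.38, limma adjusted p = 0.673). Neither did the kinase Jak2 (0.48, adjusted p = 0.113) or the transcription factor Stat5a (-0.43, adjusted p = 0.0678). Over the list, 6 of 8 genes had groups that did not overlap, against 15.6% of all tested genes, and the median log2 difference was 0.43, against -0.0014 over all genes.

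Downstream of the receptor, 27 listed signalling genes were all tested. By the adjusted p, 2 rose and none fell, against 3.49% and 2.23% of all tested genes, and the median log2 difference was 0.08. Irs2, an adaptor that couples the IGF-I and insulin receptors to PI3K, measured 8.76, 5.37, 11.3 and 8.68 FPKM in NC and 22.9, 18.2, 24.5 and 17.9 FPKM in 0 h p.r. The groups lay well apart, with a log2 difference of 1.27 (SE 0.21, limma adjusted p = 0.0126, or 0.0556 with scaling to the nuclear sum). Ptpn1, a phosphatase that dephosphorylates the insulin and IGF-I receptors, rose from 18.1 ± 3.13 to 33.1 ± 7.00 FPKM (SD, n = 4). Its log2 difference was 0.84 (SE 0.19, limma adjusted p = 0.0368). Ptpn1 passed with only 1 of the 8 libraries omitted, 0 h p.r. replicate 4 (adjusted p = 0.0113), and without any other library the adjusted p was 0.0521 to 0.106. It was 0.126 with scaling to the nuclear sum. Irs1, the related adaptor, did not pass (0.60, limma adjusted p = 0.327). Pik3r1, the regulatory subunit of PI3K, was just outside at -0.98 (SE 0.24, limma adjusted p = 0.0505), with overlapping groups. For Akt1, Mtor and Foxo1, the kinases and the transcription factor at the end of this branch, the log2 differences were 0.13, -0.21 and 0.08, and the limma adjusted p was 0.531, 0.459 and 0.871.

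**Figure D4:**
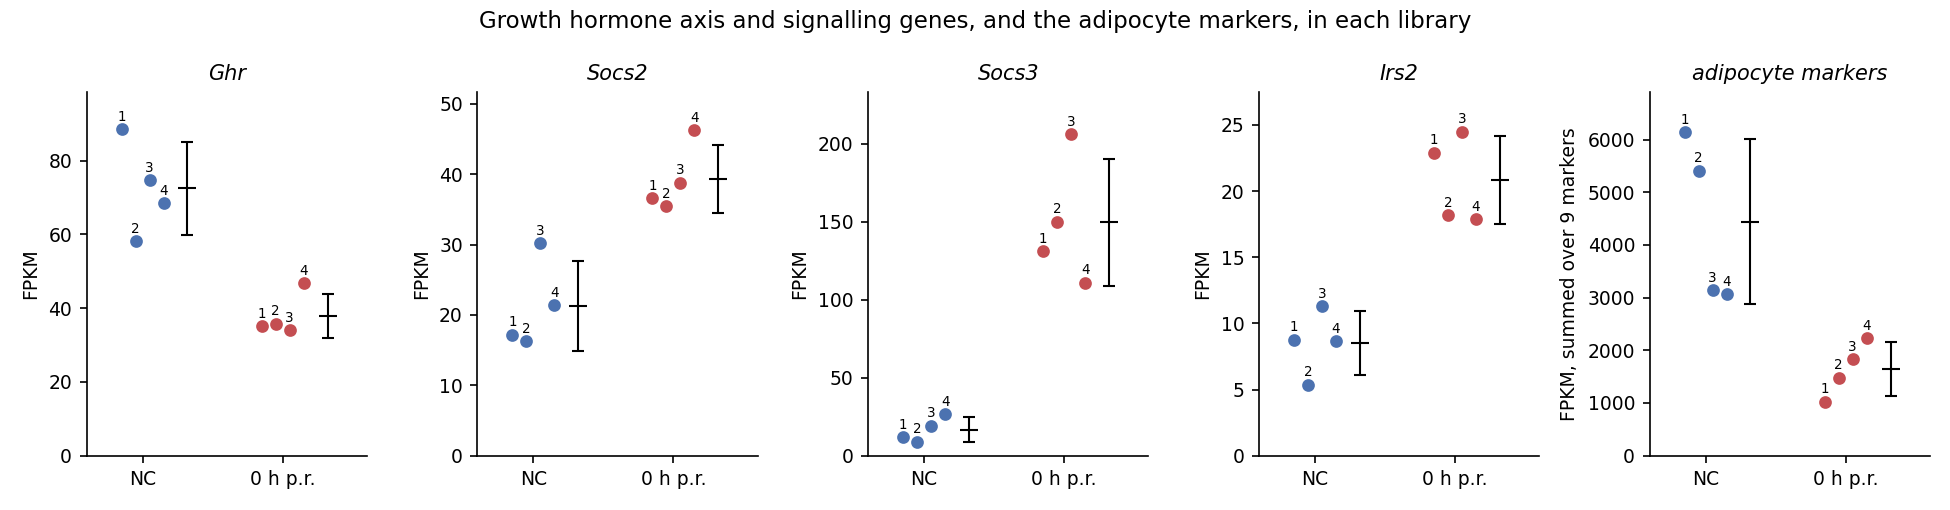
Ghr, Socs2, Socs3 and Irs2 (FPKM) and the summed FPKM of the 9 adipocyte markers in each library, with linear axes from 0, points labelled by replicate number and bars giving mean ± SD. In each panel the groups do not overlap; Ghr and the adipocyte markers are lower in 0 h p.r. and Socs2, Socs3 and Irs2 higher.

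Proteases of the binding proteins and the stanniocalcins, secreted glycoproteins that block PAPP-A family proteases, formed a list of 8 genes of which 6 were tested. Only Stc1 passed, by both thresholds, against 5.72% of all tested genes by the adjusted p and 2.70% by both thresholds. It measured 4.19, 5.07, 4.84 and 5.59 FPKM in NC and 29.3, 26.4, 26.3 and 11.2 FPKM in 0 h p.r. Even the lowest running library, replicate 4, held more Stc1 than any control. The log2 difference was 2.05 (SE 0.28, limma adjusted p = 0.00595). Its relative Stc2 measured 2.82, 2.01, 4.51 and 5.44 FPKM in NC and 6.81, 9.20, 8.02 and 20.9 FPKM in 0 h p.r., also without overlap. The Stc2 estimate of 1.43 (SE 0.38) did not pass, with a limma adjusted p of 0.0597 (0.0322 with array weights), and 0 h p.r. replicate 4 was the highest library here although it was the lowest of its group for Stc1. Pappa2, a protease that cuts IGFBP3 and IGFBP5, measured 1.95 ± 0.519 and 1.45 ± 0.375 FPKM (limma adjusted p = 0.399). Htra1, a serine protease reported to cut IGFBP5, measured 179 to 209 FPKM in NC and 204, 232, 252 and 769 FPKM in 0 h p.r., the last in replicate 4 (limma adjusted p = 0.320).

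The other insulin and IGF receptors, carriers and mRNA-binding proteins made up a list of 9, of which 4 had a row and 2 passed the filter. Insr, the insulin receptor, measured 6.64 ± 2.28 and 10.7 ± 3.97 FPKM (log2 difference 0.65, SE 0.31, limma adjusted p = 0.262). Igf2r, the receptor that clears IGF-II, measured 13.8 ± 2.82 and 16.5 ± 1.38 FPKM (0.27, SE 0.16, limma adjusted p = 0.366). Neither passed the test. Over the 4 lists together, 43 of 52 genes were tested, and 4 passed both thresholds, against 2.70% of all tested genes. By the adjusted p, 6 rose and 1 fell. That is a share of rises above, and of falls close to, the 3.49% and 2.23% of all tested genes, and the lists were chosen with earlier results of these data known. Groups that did not overlap were seen for 12 of the 43, against 15.6% of all tested genes, and the median log2 difference was 0.13.

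Adipocyte marker levels were lower in 0 h p.r., as were those of Igf1 and Ghr. All 9 adipocyte markers were lower in 0 h p.r., none was at 0 in any library, and their sum was 6135, 5409, 3145 and 3065 FPKM in NC and 1022, 1480, 1831 and 2234 FPKM in 0 h p.r. The mean of their log2 values differed by -1.72, with a two-sided exact permutation p of 0.0286, the smallest that 70 assignments allow. This difference did not pass after adjustment over the 7 marker lists. Even at the smallest p, a list can pass that adjustment only if most of the lists reach the same p. The adjusted result therefore cannot decide whether the adipocyte markers differed. Within the controls, NC replicate 3 held the most Igf1 (98.5 FPKM) with an adipocyte sum of 3145 FPKM, and NC replicate 1 the least Igf1 (58.8 FPKM) and the most Ghr (88.5 FPKM) with the highest sum. NC replicate 2 had the least Ghr of the controls (58.2 FPKM) with a sum of 5409 FPKM. Within the running group, replicate 4 was highest for Igf1 (51.1 FPKM), Ghr (46.7 FPKM) and the adipocyte sum (2234 FPKM), and replicate 3 had the lowest Igf1 (30.5 FPKM) with a sum of 1831 FPKM. Macrophage markers, from cells that also make IGF-I, summed to 416 to 841 FPKM in NC and 510 to 1165 FPKM in 0 h p.r. (3 markers higher and 6 lower, difference of mean log2 values -0.18, exact permutation p = 0.600). Their sum was lowest in NC replicate 3, the control with the most Igf1, and highest in 0 h p.r. replicate 4, the running library with the most Igf1. The 7 endothelial markers summed to 484 to 555 FPKM in NC and 432 to 523 FPKM in 0 h p.r. (0 higher and 7 lower, -0.16, exact permutation p = 0.171).

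Bone and cartilage markers had higher sums in every running library than in any control. Bone markers summed to 10.6 to 48.9 FPKM in NC and 49.1 to 163 FPKM in 0 h p.r., 6 of 6 being higher (1.40, exact permutation p = 0.0286 before adjustment), and Bglap, Sp7 and Sost each had a library at 0. Cartilage markers summed to 8.13 to 90.0 FPKM in NC and 95.1 to 379 FPKM in 0 h p.r., 4 of 5 being higher and Cnmd lower (1.70, exact permutation p = 0.0571), and Col10a1 was at 0 in NC replicate 2. Skeletal muscle markers differed by -0.36 (5 higher and 3 lower, exact permutation p = 0.686), and tenocyte markers by 0.15 (exact permutation p = 0.486). The lower muscle markers included the slow-fibre genes Myh7, at 306, 61.1, 329 and 226 FPKM in NC and 161, 39.8, 0.514 and 16.0 FPKM in 0 h p.r., and Tnnt1, at 576, 328, 507 and 370 FPKM in NC and 289, 93.0, 1.52 and 34.6 FPKM in 0 h p.r. The higher ones included Myh1, at 36.2, 149, 203 and 107 FPKM in NC and 1129, 238, 630 and 28.1 FPKM in 0 h p.r. Also higher were Actn3 (16.2, 277, 255 and 149 FPKM, then 1774, 367, 855 and 41.5 FPKM) and Tnnt3 (210, 881, 650 and 384 FPKM, then 4183, 731, 2044 and 127 FPKM). The part of fat, muscle, vessels, macrophages, bone or cartilage tissue in the values of Igf1, Ghr and the other genes named here was not tested.

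The genes whose levels followed each member most closely over the 8 libraries were found by Pearson's r of log2(FPKM + 0.5) among 11547 genes, a description over libraries that share group and depth. Igf1 was most like Nek4 and Nceh1 (both r = 0.96). Nceh1 went from 2.75 ± 0.436 to 1.93 ± 0.293 FPKM and Nek4 from 3.42 ± 0.518 to 2.31 ± 0.240 FPKM. Igf1r was most like Vcpip1 (0.99) and Hdac4 (0.98). For the binding protein genes the nearest were Pcdhgb7 (0.92) and RF00100 (0.93) for Igfbp3, Farsa (0.89) and Casp12 (0.87) for Igfbp4, Ckap4 (0.96) and Sec31a (0.95) for Igfbp5, Cyp27a1 (0.97) and Kera (0.96) for Igfbp6, and Scand1 (0.97) and Cndp2 (0.95) for Igfbp7. Igf2 was most like RF00400 (0.95) and AABR07015080.1 (0.90), and both RF names are Rfam family symbols. The members themselves were left out of this search.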

How the data were processed

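The authors sequenced polyadenylated RNA with a strand-specific kit, aligned reads with HISAT2 2.1.0 to Rnor_6.0, counted them with featureCounts 1.6.3 and normalized with DESeq2 1.30.1. The deposited table held FPKM per library, which the authors had scaled between libraries, and their own log2 fold changes and p-values, which were not used. Samples were grouped by their titles. FPKM values were tested with limma 3.58.1 (R 4.3.3; lmFit, eBayes with trend, two-sided) on log2(FPKM + 0.5), for the 13863 genes with at least 0.5 FPKM in at least 4 of 8 libraries. Benjamini-Hochberg adjustment ran over all of them, and fold changes understate those of low genes. Calls were an adjusted p under 0.05, alone or with a fold of at least 2. Whole reads were recovered from the FPKM steps for 15590 of 15590 genes (100%, tolerance 0.01 of a read) and gave the depth. limma-voom on these reads called 418 genes past both thresholds, against 374. Counting errors cover counting only.

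Marker lists were tested on mean log2 values by exact permutation over the 70 assignments, two-sided. Named were all members, the called genes of each pathway list or, up to 2 per list, those with the largest change, and the 2 genes most like each member with a mean of at least 2 FPKM. Pathway genes given without a call that fall outside this rule were chosen after their values were seen. The members and lists were chosen with earlier results of these data known. Scripts were tested on simulated data. Promoters are from RefSeq (GRCr8), in which 9 of 9 members matched. Figures were drawn with matplotlib 3.10.9. The alternatives tried were the pseudocount, the filter, scaling, a replicate block, array weights, a minimum fold, voom and omitted libraries.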

Additional observations from a re-analysis of the deposited data

Results flagged for a closer look

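Of 72 groups of 4 values examined (the IGF and named pathway genes, the sums, ratios and percent shares, and the marker lists in each group), 5 held a library far from the other 3, with a gap to its neighbour, as a share of the group's range, above Dixon's 95% critical value. About 1 in 20 independent groups does so by chance, and the number of cases here is near that. The groups are not independent, since sums, shares and ratios reuse the same genes, so this rate is a rough guide only. All 5 cases were in 0 h p.r.

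Among the IGF genes, Igfbp4 stood out in 0 h p.r. replicate 2, with 389 FPKM against 307 to 318 FPKM in the other running libraries. Among the other receptors, Igf2r stood out in 0 h p.r. replicate 1, the highest of its group at 18.5 FPKM. The remaining 3 cases were all in 0 h p.r. replicate 4, with Stc1 lowest at 11.2 FPKM, Stc2 highest at 20.9 FPKM and Ghr highest at 46.7 FPKM. That library also held the fewest muscle marker transcripts (898 FPKM) and the most tenocyte marker transcripts (22227 FPKM). The part of tissue make-up in these values was not tested.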

How the results depend on the processing

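The fall in Igf1 kept its sign in all 20 alternatives, with log2 differences of -1.04 to -0.71, and its adjusted p under 0.05 in 8 of them. The count of members called was 0 with quantile normalization (Igf1 adjusted p = 0.0505), scaling to the nuclear sum (0.0760), the replicate block (0.115), a minimum fold of 1.5 (1.000) and without 0 h p.r. replicates 1 and 4 together (0.0612), and 0 to 1 with single libraries left out. Past both thresholds it was 0 to 1, the 1 being Igf1 without 0 h p.r. replicate 4. Same-numbered libraries did not deviate together (r of -0.141 to 0.0717), so no pairing by number was seen. This check rests on 4 pairs and cannot exclude a shared cage, day or batch. The replicate block gave 212 genes past both thresholds, against 374, and 235 at any fold, against 793. The minimum fold gave 60, scaling to the nuclear sum 342 at any fold, and array weights 2069. Leaving out single libraries gave 195 to 516 past both thresholds and 251 to 1178 at any fold.

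The 7 calls in the pathway lists became 3 with the nuclear sum, 13 with array weights, 1 with the minimum fold and 4 to 8 with a library left out. Stc2 passed with array weights (adjusted p = 0.0322) and the replicate block (0.0449). Under the block Ghr (0.0594), Socs2 (0.0612) and Ptpn1 (0.0995) did not pass, and 5 of the list genes did. The bone marker difference of medians was 1.62 (exact permutation p = 0.0571). The other 7 members passed under no alternative. Their signs turned for Igfbp4 with quantile normalization (-0.03) and the nuclear sum (-0.07), for Igfbp5 with array weights (-0.05) and for Igfbp6 without 0 h p.r. replicates 1 and 4 together (-0.03). With single libraries left out the ranges were -0.26 to 0.07 for Igf2, -0.09 to 0.11 for Igfbp4, -0.10 to 0.24 for Igfbp5, -0.07 to 0.37 for Igfbp6 and -0.21 to 0.02 for Igfbp7. Igf1r ranged from 0.23 to 0.59 and Igfbp3 from 0.06 to 0.46, without a change of sign. The causes were not tested. For Igf1r, 41 reads in 1 library limit the precision.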
